A study of Arabidopsis thaliana with 12 samples.

Results

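Jasmonate signalling in leaves was followed through 10 genes, 9 JAZ repressors and the transcription factor MYC2 (AT1G32640). The repressors were JAZ1 (AT1G19180), JAZ2 (AT1G74950), JAZ3 (AT3G17860), JAZ5 (AT1G17380), JAZ6 (AT1G72450), JAZ7 (AT2G34600), JAZ8 (AT1G30135), JAZ9 (AT1G70700) and JAZ10 (AT5G13220). The rule takes the members by their gene identifiers, a list drawn up with earlier results of these data known, and all 10 are among the 34133 identifiers of the deposited tables. They were measured by RNA sequencing in the first leaf of 14-day-old Arabidopsis thaliana seedlings, in a study of hybrids between natural accessions. Col-0 was sequenced in 4 libraries. Per-1, Aa-0 and a hybrid of each with Col-0, had 2 libraries apiece. The hybrids are labelled Col-0×Per-1 (the Per-1 hybrid) and, for the other, Col-0×Aa-0 (the Aa-0 hybrid). All plants were unmodified and untreated and grew on Murashige and Skoog medium with sucrose. The study's overview text names Ler-1 as an accession and speaks of duplicates, whereas the sample labels name Per-1 and give Col-0 4 libraries, and the labels were followed. The labels do not say how many plants went into a library or whether replicates were separate plants, so p-values measure only the spread between these libraries.

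Jasmonates are lipid-derived hormones of wounding, insect attack and touch. In resting cells JAZ proteins bind MYC2 and related bHLH factors and recruit the corepressors NINJA and TOPLESS, which keeps jasmonate genes silent. The active hormone, jasmonoyl-isoleucine, joins a JAZ protein to the receptor COI1, the JAZ protein is degraded, and MYC2 is released. MYC2 binds the G-box CACGTG in many target promoters, and the JAZ genes are themselves among its targets, so that JAZ transcripts are commonly read as a sign of recent jasmonate response.

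The 250 bases before the annotated start of each member were read from the TAIR10.1 genome with the RefSeq gene models, which represent the Col-0 accession. The deposited tables hold no coordinates and were made on TAIR10 per the submitters' processing notes, so the positions below refer to TAIR10.1 alone. The motif CACGTG, which reads the same on both strands, was present in 4 of the 10 windows (40.0%), those of JAZ2, JAZ3, JAZ7 and JAZ8. It was present in 2044 of 37897 such windows of nuclear genes (5.39%) and in 1273 of 17000 windows of genes that entered the tests below (7.49%). The windows of JAZ1, JAZ5, JAZ6, JAZ9, JAZ10 and MYC2 held none, which says only that these letters are not in that stretch. Sequences of 4 members are given 5′ to 3′ on the strand of the gene, with CACGTG in capitals. JAZ2 and JAZ10 are the members that differed between Per-1 and Col-0, JAZ7 had the largest difference between Per-1 and Aa-0, and JAZ3 holds the motif 2 times and differed in no comparison. The JAZ2 window is chr1:28150447-28150696 on the minus strand with the motif 66 bases before the start. The JAZ3 window is chr3:6119457-6119706 on the plus strand with motifs 140 and 82 bases before it. The JAZ7 window is chr2:14572780-14573029 on the plus strand with the motif 34 bases before it. The JAZ10 window is chr5:4218536-4218785 on the plus strand, and part of it lies in the non-coding gene AT5G02045.
JAZ2: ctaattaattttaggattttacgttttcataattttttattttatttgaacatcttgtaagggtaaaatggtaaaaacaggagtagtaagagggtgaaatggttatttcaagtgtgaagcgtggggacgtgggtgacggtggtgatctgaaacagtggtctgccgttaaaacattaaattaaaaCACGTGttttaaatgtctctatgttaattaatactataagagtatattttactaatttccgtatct
JAZ3: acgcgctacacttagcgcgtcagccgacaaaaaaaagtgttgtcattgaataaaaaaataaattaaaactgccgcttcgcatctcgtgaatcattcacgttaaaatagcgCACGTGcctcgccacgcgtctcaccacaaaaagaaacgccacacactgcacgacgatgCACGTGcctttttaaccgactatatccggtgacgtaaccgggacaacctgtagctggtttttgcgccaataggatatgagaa
JAZ7: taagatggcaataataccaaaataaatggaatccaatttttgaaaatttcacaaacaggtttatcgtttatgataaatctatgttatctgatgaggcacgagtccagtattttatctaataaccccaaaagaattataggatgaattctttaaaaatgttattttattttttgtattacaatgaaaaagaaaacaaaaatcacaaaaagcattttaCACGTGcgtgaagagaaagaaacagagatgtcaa
JAZ10: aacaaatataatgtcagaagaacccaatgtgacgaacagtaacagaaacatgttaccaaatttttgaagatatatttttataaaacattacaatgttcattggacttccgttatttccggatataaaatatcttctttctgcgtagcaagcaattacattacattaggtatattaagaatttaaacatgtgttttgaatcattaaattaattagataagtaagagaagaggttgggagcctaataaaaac

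Values are FPKM, fragments per kilobase of transcript scaled to the total mapped, which are corrected for length, so levels may be set side by side between genes. Each library had 20772 to 21781 identifiers above 0, and relative depths recovered from the smallest steps in the values ran from 0.638 (Col-0×Per-1 replicate 2) to 1.1. The Col-0 libraries fell into pairs: Pearson's r across genes was 0.99 between replicates 1 and 2 and 0.98 between replicates 3 and 4, against 0.949 to 0.96 across the pairs. LHY, a clock gene of the morning, was at 50.6, 51.5, 1.57 and 1.85 FPKM in Col-0 replicates 1 to 4. RBCS1A, a Rubisco subunit gene used by every green leaf cell, read 0 in Col-0 replicates 1 and 2 and 16409 to 25067 FPKM in the other libraries, so a 0 in these tables can be a failed estimate. Leaf mesophyll markers summed to 36720 to 49720 FPKM per library, root markers to at most 3.05 and floral markers to at most 1.12, and the shoot meristem genes CLV3 and WUS were listed at 0 in every library.

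Per-1 leaves had the highest levels of nearly the whole set. The group mean was highest in Per-1 for 9 of the 10 members, the exception being JAZ8, which was highest in Col-0 and below 1 FPKM in all 12 libraries. Differences were tested with limma on log2(FPKM + 1) in 1 model of all 5 groups over 17203 genes, with Benjamini-Hochberg adjustment and an adjusted p below 0.05 as the threshold. JAZ8 did not reach 1 FPKM in 2 libraries and was not tested, leaving 9 members. Differences on this scale understate changes of genes at low levels, and in leaf RNA fewer cells of a type and less RNA per cell cannot be told apart. The tables of all groups were made on TAIR10, a build of Col-0. The part of sequence differences from Col-0 in the values of Aa-0, Per-1 and the hybrids was not tested.

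**Figure D1:**
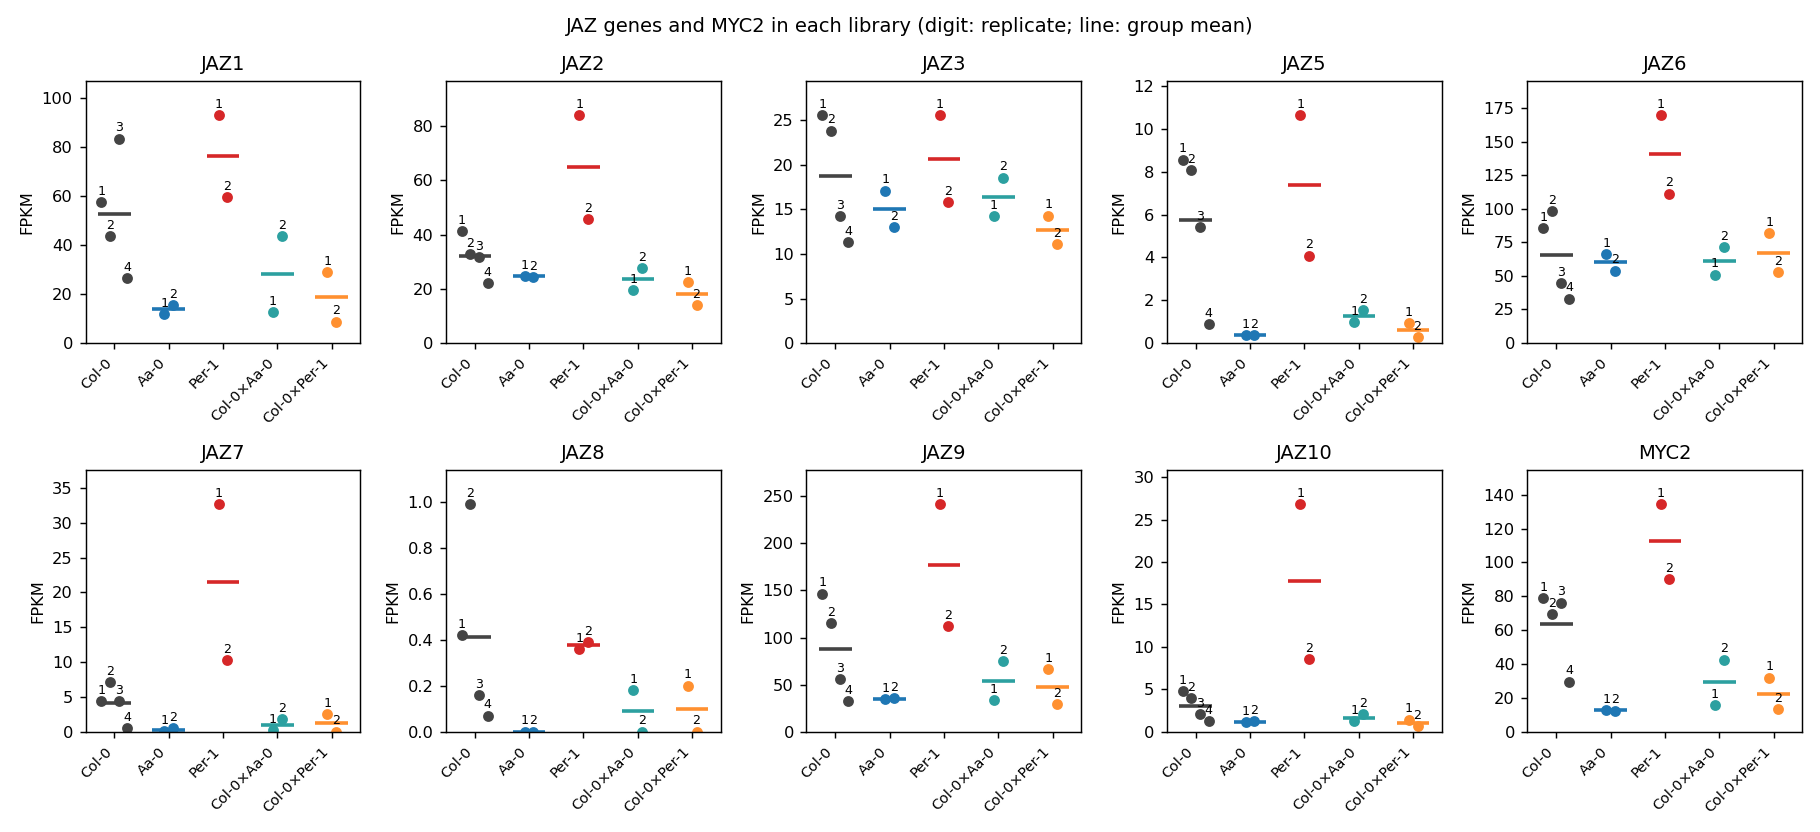
FPKM (vertical axes, linear, each from 0) of the 10 members in each of the 12 libraries by group, with the replicate number beside each point and a line at the group mean. Both Per-1 libraries lie above every other library for JAZ2, JAZ6, JAZ7, JAZ10 and MYC2, and Per-1 replicate 1 lies above replicate 2 for every member except JAZ8.

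Of the 9 tested members, 2 were higher in Per-1 than in Col-0 and none lower, where 25.7% of all tested genes differed, 6.17% higher and 19.6% lower. All 9 differences were above 0 (median 0.97), against 28.9% of all genes (median -0.19), and all 9 stayed above 0 with both other scalings. With median-ratio scaling the median of all genes moved from -0.19 to -0.01 and the split of all called genes from 1061 higher and 3365 lower to 1714 and 1680. Both Per-1 libraries exceeded all 4 Col-0 libraries for 5 of the 9 members (JAZ2, JAZ6, JAZ7, JAZ10 and MYC2), which held for 11.3% of all genes.

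JAZ10, a repressor whose splice forms that resist degradation restrain the jasmonate response, was at 4.79, 4.0, 2.1 and 1.26 FPKM in the 4 Col-0 libraries, 1.12 and 1.27 in those of Aa-0 and 26.9 and 8.56 in those of Per-1. It had 1.21 and 2.12 FPKM in the Aa-0 hybrid and 1.43 and 0.65 in the Per-1 hybrid. Both Per-1 libraries stood above the other 10, which overlapped one another. JAZ10 rose by 2.11 ± 0.46 (standard error, log2 scale) in Per-1 against Col-0 (adjusted p = 0.00883, limma). The gene overlaps AT5G02045, a non-coding gene on the other strand, by 71 bases, and the library kit does not keep strand, so reads from that stretch cannot be assigned to either.

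JAZ2, a close relative of JAZ1, was at 41.2, 32.9, 31.6 and 22.2 FPKM in the 4 Col-0 libraries, 24.8 and 24.4 in those of Aa-0 and 84.1 and 45.9 in those of Per-1. The hybrids had 19.7 and 27.6 FPKM (Col-0×Aa-0) and 22.6 and 13.9 (Col-0×Per-1). Again the Per-1 libraries were the highest, though replicate 2 came close to Col-0 replicate 1. JAZ2 rose by 0.97 ± 0.30 on the log2 scale in Per-1 against Col-0 (adjusted p = 0.0389, limma). Without Per-1 replicate 1 the difference was 1.34 for JAZ10 (adjusted p = 0.106) and 0.54 for JAZ2 (adjusted p = 0.349), so neither passed, with the lone Per-1 library assumed to vary like the other groups. JAZ2 also failed without Col-0 replicate 2, 3 or 4 or Aa-0 replicate 1 or 2 (adjusted p = 0.0514 to 0.0688), while JAZ10 passed in the other 11 omissions. With Col-0 represented by replicates 1 and 2 alone 1 member passed (29.0% of all genes), and by replicates 3 and 4 alone 5 passed (31.9%).

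MYC2, the factor the JAZ proteins hold back, was at 78.9, 69.4, 76.2 and 29.6 FPKM in the 4 Col-0 libraries, 12.9 and 12.4 in those of Aa-0 and 135 and 90.3 in those of Per-1. It had 15.8 and 42.6 FPKM in the Aa-0 hybrid and 32.0 and 13.2 in the Per-1 hybrid. Aa-0 was below every library of the other groups, Per-1 was above them all, and Col-0 replicate 4 fell among the hybrids. MYC2 lies opposite AT1G32630, a protein-coding gene on the other strand that overlaps it by 3241 bases and was at 3.35 to 7.59 FPKM, and without strand the reads of the overlap cannot be told apart. In Per-1 against Col-0 the difference of MYC2 was 0.88 ± 0.50 (log2) and did not pass (adjusted p = 0.216, limma).

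In Aa-0 against Col-0, 2 of the 9 members were lower, MYC2 and JAZ5, and none higher, where 16.7% of all tested genes differed (812 higher, 2058 lower). MYC2 fell by 2.15 ± 0.50 on the log2 scale (adjusted p = 0.0163, limma). JAZ5, which pairs with JAZ6 as a close relative, was at 8.57, 8.10, 5.41 and 0.88 FPKM in Col-0 and 0.38 in both Aa-0 libraries. All 4 Col-0 libraries were above Aa-0, with replicate 4 nearest to it. JAZ5 fell by 2.04 ± 0.60 (adjusted p = 0.0436, limma). Differences were below 0 for 8 of the 9 members, JAZ6 being the exception at 0.01 ± 0.41 (differences above 0 were found for 32.1% of all genes), and their median was -1.06 against -0.14 for all genes. All Col-0 libraries exceeded both Aa-0 libraries for 4 of the 9 (JAZ1, JAZ5, JAZ7 and MYC2), as for 27.0% of all genes.

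Without Aa-0 replicate 1 or replicate 2 no member passed in Aa-0 against Col-0 (adjusted p for MYC2 0.109 and 0.0689, for JAZ5 0.21 and 0.128), and none passed with Col-0 replicates 3 and 4 alone. JAZ5 failed in 9 of the 12 omissions, every one except those of Col-0 replicate 4 and Per-1 replicates 1 and 2 (adjusted p = 0.0598 to 0.21). Without Col-0 replicate 4 the count was 4 (JAZ1, JAZ5, JAZ7 and MYC2).

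Between the other 2 parents, Per-1 against Aa-0, 4 of the 9 members were higher in Per-1 (JAZ2, JAZ7, JAZ10 and MYC2), where 9.96% of all tested genes differed, 4.67% higher and 5.29% lower. JAZ7, a short JAZ protein related to JAZ8, was at 0.14 and 0.48 FPKM in Aa-0 and 32.7 and 10.3 in Per-1, against 4.41, 7.09, 4.39 and 0.55 in Col-0. Per-1 was above and Aa-0 below every Col-0 library. JAZ7 was 3.91 ± 0.84 higher in Per-1 than in Aa-0 on the log2 scale (adjusted p = 0.0161, limma). MYC2 was 3.03 ± 0.57 higher (adjusted p = 0.00839), JAZ10 2.90 ± 0.53 (adjusted p = 0.00677) and JAZ2 1.3 ± 0.34 (adjusted p = 0.0405). All 9 differences were above 0 (42.6% of all genes; median 2.37, against -0.05), and both Per-1 libraries exceeded both Aa-0 libraries for 8 of 9 members, all but JAZ3, as for 23.3% of all genes. Without Per-1 replicate 1 none of the 4 passed (adjusted p = 0.0596 to 0.304), and the count was 2 without Aa-0 replicate 1, 1 without its replicate 2 and 7 without Col-0 replicate 4. The JAZ2 call also ended without Col-0 replicate 2 or 3 or either Col-0×Aa-0 library (adjusted p = 0.0507 to 0.0534).

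The other members did not pass between any 2 parents. JAZ9, a relative of JAZ3 and with JAZ6 the most abundant member per length, was at 147, 115, 56.1 and 32.2 FPKM in the 4 Col-0 libraries, 34.4 and 35.8 in those of Aa-0 and 242 and 112 in those of Per-1. Per-1 replicate 2 lay below Col-0 replicates 1 and 2, so these groups overlapped (difference 1.14 ± 0.61, adjusted p = 0.195, limma). JAZ6 was at 85.5, 98.4, 44.5 and 33.1 FPKM in the 4 Col-0 libraries, 66.2 and 53.9 in those of Aa-0 and 170 and 111 in those of Per-1. Per-1 was above every other library for JAZ6 as well, at a difference from Col-0 of 1.2 ± 0.41 (adjusted p = 0.0588). JAZ1, among the first JAZ proteins shown to be a target of COI1, was at 57.5, 43.6, 83.4 and 26.4 FPKM in the 4 Col-0 libraries, 11.8 and 15.6 in those of Aa-0 and 93.0 and 59.6 in those of Per-1. Its Col-0 replicate 3 lay between the Per-1 libraries (0.61 ± 0.59, adjusted p = 0.471).

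JAZ3, known from a dominant allele whose truncated protein blocks jasmonate response, overlapped between all 3 parents. Its levels were 25.6, 23.9, 14.3 and 11.4 FPKM in the 4 Col-0 libraries, 17.1 and 13.0 in those of Aa-0 and 25.6 and 15.8 in those of Per-1 (Per-1 against Col-0 0.17 ± 0.32, adjusted p = 0.726, limma). JAZ5 in Per-1 was at 10.7 and 4.09 FPKM, the first above and the second within the Col-0 range. JAZ8, which lacks the usual degradation motif and recruits TOPLESS directly, was listed at 0.42, 0.99, 0.16 and 0.07 FPKM in Col-0, at 0 in both Aa-0 libraries and at 0.36 and 0.39 in Per-1. It was listed at 0.18 and 0 FPKM in the Aa-0 hybrid and at 0.20 and 0 in the Per-1 hybrid, too low for any ordering of the groups. With the 5 groups of each tested member ordered by mean FPKM, 2 of 36 neighbouring pairs differed, Per-1 over Col-0 for JAZ2 and for JAZ10.

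**Figure D2:**
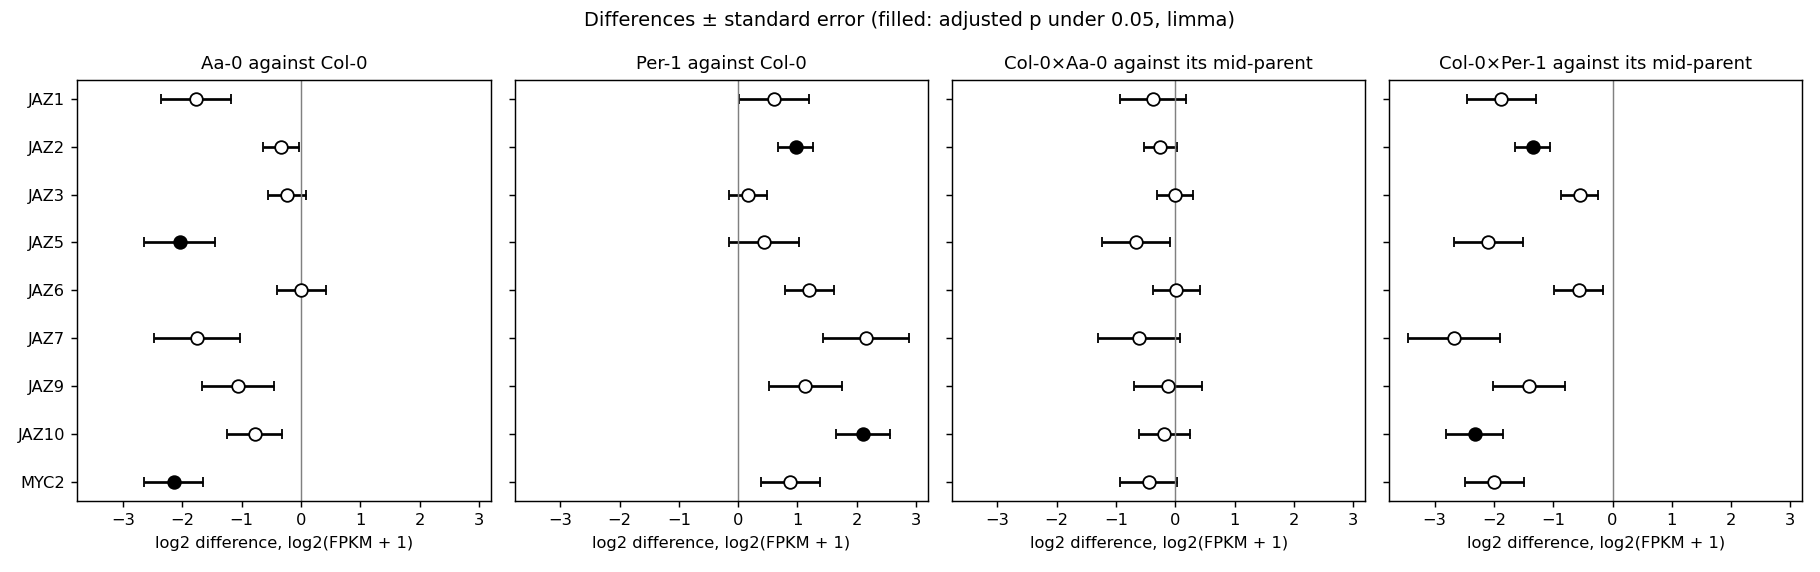
Difference on the log2(FPKM + 1) scale (horizontal axes) of the 9 tested members, with bars of ± 1 standard error, for each second parent against Col-0 and each hybrid against its mid-parent. Filled points passed the adjusted p threshold (limma): MYC2 and JAZ5 below 0 in Aa-0, JAZ2 and JAZ10 above 0 in Per-1 and below 0 in Col-0×Per-1, and none in Col-0×Aa-0.

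The 2 Per-1 libraries differed from each other across the set. In ratios of FPKM + 1, Per-1 replicate 1 exceeded replicate 2 for all 9 tested members, by at least 1.5-fold for 8 of them (MYC2 was at 1.48), where 3.23% of all tested genes reached that ratio. The ratio was 2.99 for JAZ7, 2.91 for JAZ10, 2.29 for JAZ5, 2.14 for JAZ9 and 1.82 for JAZ2, with a member median of 1.81 against 0.99 for all genes. In replicate 1 alone JAZ10 thus stood at 26.9 FPKM and JAZ7 at 32.7, and in replicate 2 at 8.56 and 10.3, still above every library of the other groups. JAZ5 and JAZ9 exceeded all Col-0 libraries in replicate 1 and not in replicate 2.

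Replicates of other groups also differed. Col-0×Per-1 replicate 1 exceeded replicate 2 at least 1.5-fold for 7 of 9 members (5.41% of all genes), Col-0×Aa-0 replicate 2 exceeded replicate 1 for 4 (6.06%), and Col-0 replicate 3 exceeded replicate 4 for 5 (5.47%). Between Aa-0 replicates 1 and 2 no member reached it in that direction (4.04%), nor between Col-0 replicates 1 and 2 (1.78%). The direction of each ratio was chosen after the values were seen. JAZ1 and MYC2, with ratios of 3.27 and 2.60, led in Col-0×Aa-0, while JAZ7 and JAZ1 led in Col-0×Per-1 at 3.48 and 3.08.

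**Figure D3:**
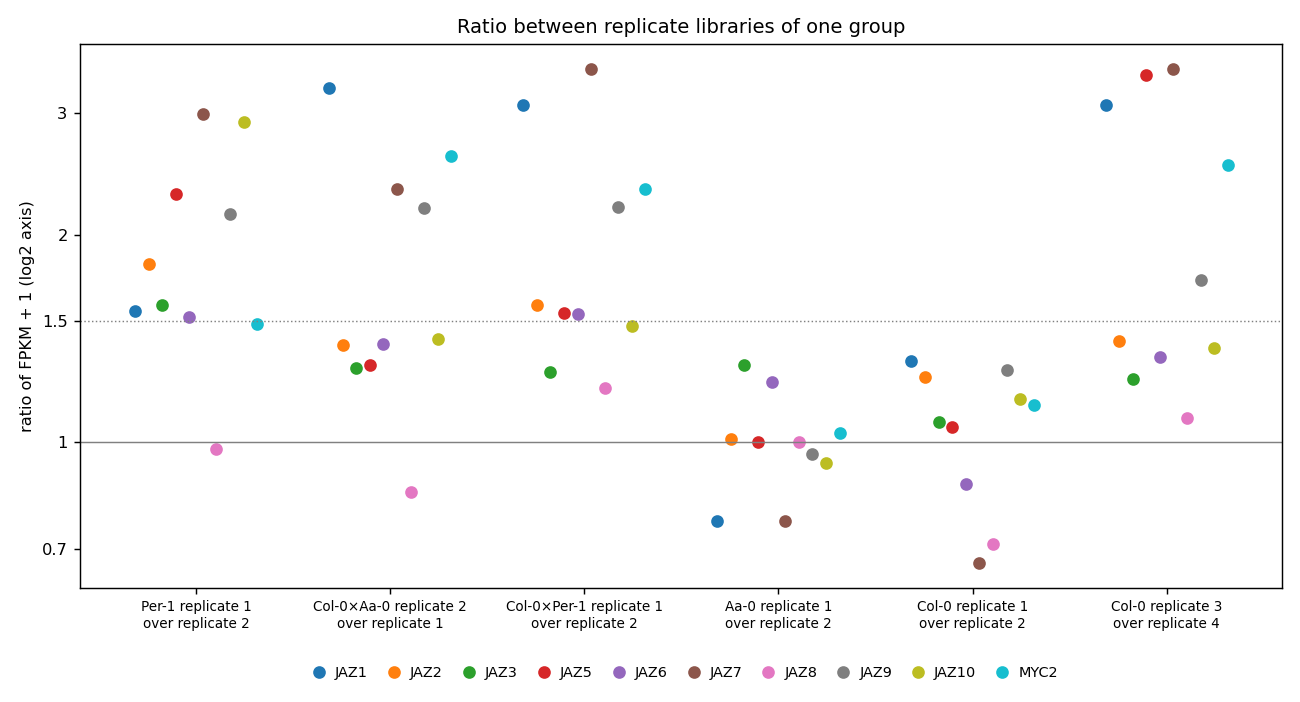
Ratio of FPKM + 1 (vertical axis, log2 scaled) of the 10 members between replicate libraries of a group, with lines at 1 and at 1.5. In the Per-1 pair every member except JAZ8 lies above 1, with JAZ7 at 2.99 and JAZ10 at 2.91, whereas in the Aa-0 pair none reaches 1.5.

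A list of 12 touch and early wounding genes, which includes TCH calmodulin-like genes and the ERF and WRKY factors induced within minutes of handling, was set beside the members. Its summed level was 912.4 and 1300 FPKM in Per-1, 127.6 and 286.9 in Aa-0 and 312.7 to 1450 in Col-0, against member sums of 458.7 and 819.4, 157.2 and 168.8, and 157.7 to 453.5. It was 146.7 and 712.1 for the Aa-0 hybrid, with 144.5 and 693.6 for the Per-1 hybrid, where the members summed to 149.5 and 283.8, and to 130.5 and 251.0. The library with the higher touch sum also had the higher member sum in both hybrids, in Aa-0, in Per-1 and in each of the 2 Col-0 pairs, although the highest touch sum of all, in Col-0 replicate 3, went with a lower member sum than in Col-0 replicates 1 and 2. Within pairs the touch list reached a 1.5-fold ratio for 12 of 12 genes in Col-0×Aa-0 and between Col-0 replicates 3 and 4, for 11 in Col-0×Per-1, for 6 in the Aa-0 pair, and for 5 in that of Per-1 and between Col-0 replicates 1 and 2. In Per-1 its median ratio was 1.42 and the members' 1.81, while in the hybrids the touch medians, 4.2 and 4.14, were above those of the members, 1.41 and 1.58. Of the 12 touch genes none passed between Per-1 and Col-0 (median 0.67), 1 was lower in Aa-0 (ERF13, -1.71 ± 0.49, adjusted p = 0.0394) and 1 higher in Per-1 than in Aa-0 (ORA47, 3.90 ± 0.91, adjusted p = 0.0236, limma). Of all tested genes 25.7%, 16.7% and 9.96% differed in these comparisons. The part of this response in the member differences was not tested.

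**Figure D4:**
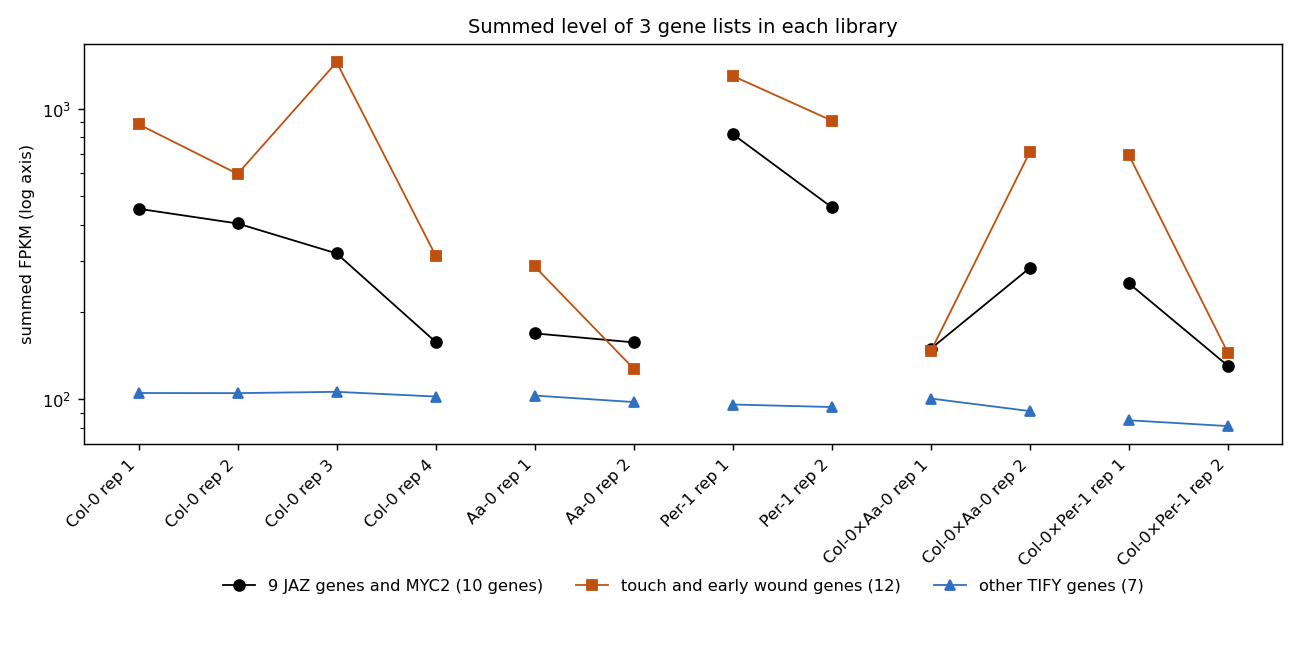
Summed FPKM (vertical axis, log scale) in each of the 12 libraries for the 10 members, 12 touch and early wounding genes and 7 other TIFY genes, with lines joining libraries of a group. The members are lowest in Col-0×Per-1 replicate 2 (130.5) and the touch genes in Aa-0 replicate 2 (127.6), and both sums are high in Per-1. The sum of the other TIFY genes, of which JAZ12 is the largest part, stays between 80.94 and 106.2 FPKM. It does not show changes of its low genes, such as JAZ13.

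In Col-0×Per-1 the members lay below the Per-1 parent. Against Per-1, 3 of 9 members were lower (JAZ2, JAZ10 and MYC2), where 4.75% of all tested genes differed, 2.41% higher and 2.34% lower. JAZ10 fell by 3.03 ± 0.53 on the log2 scale (adjusted p = 0.00816), JAZ2 by 1.75 ± 0.34 (adjusted p = 0.0161) and MYC2 by 2.37 ± 0.57 (adjusted p = 0.0469, limma). All 9 lay below Per-1 (42.5% of all genes lay above it; median -2.15, all genes -0.05), with no overlap of the libraries for any of the 9, which held for 32.0% of all genes. Without Per-1 replicate 1, or without Col-0×Per-1 replicate 2, the shallowest library, no member passed (adjusted p = 0.076 to 0.373). MYC2 also failed without Per-1 replicate 2, either Aa-0 library or Col-0 replicate 1, 2 or 3 (adjusted p = 0.0573 to 0.126), and without Col-0 replicate 4 the count was 5. Against Col-0 no member of 9 passed with limma (4 at an unadjusted p below 0.05), where 19.9% of all genes differed (37.2% unadjusted), and without Col-0 replicate 4 the count was 2, JAZ5 and MYC2, both lower.

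Col-0×Aa-0 also lay below Per-1, a comparison with a parent it does not have, added after the data were seen. Here 3 of 9 members were lower and none higher, where 9.11% of all genes differed, 3.64% of all genes being lower. The differences were -2.64 ± 0.53 for JAZ10 (adjusted p = 0.011), -1.38 ± 0.34 for JAZ2 (adjusted p = 0.0331) and -3.39 ± 0.84 for JAZ7 (adjusted p = 0.0327, limma). All 9 were below 0 (median -1.70), whereas 62.1% of all genes were above it, and both Per-1 libraries exceeded both of this hybrid for 8 of 9 members, as for 20.4% of all genes. None of the 3 passed without Per-1 replicate 1 (adjusted p = 0.0958 to 0.26) or without Col-0×Aa-0 replicate 1 (adjusted p = 0.0867 to 0.204), and without its replicate 2 JAZ2 and JAZ7 failed (adjusted p = 0.0681 and 0.0638).

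A mid-parent level was taken as the average of both parents' fitted levels. Of 9 members, 2 lay lower than it in the Per-1 hybrid and none higher, where 2.57% of all genes differed, 0.366% higher and 2.2% lower. JAZ10 deviated by -2.33 ± 0.48 (adjusted p = 0.0393) and JAZ2 by -1.35 ± 0.30 (adjusted p = 0.0473, limma). JAZ7 had the largest deviation, -2.68 ± 0.77, and did not pass (adjusted p = 0.0914), nor did MYC2 at -1.99 ± 0.49 (adjusted p = 0.0663) or JAZ5 at -2.10 ± 0.58 (adjusted p = 0.0852). All 9 deviations were below 0 (24.8% of all genes lay above; median -1.87, all genes -0.14), under both other scalings too. Both libraries of the hybrid were below the parents' mean FPKM for all 9 tested members, as for 61.9% of all tested genes, and at least 1 of them was below every parental library for 8 of 9, all but JAZ6 (40.4% of all genes). The count was 0 with median-ratio scaling and with quantile normalization, and 0 in each omission of a library except those of Per-1 replicate 2 (2 members) and Col-0 replicate 4 (4 members). The adjusted p in the 10 omissions that ended both calls was 0.0518 to 0.426 for JAZ10 and 0.0567 to 0.516 for JAZ2.

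In Col-0×Aa-0 the members lay between or near its parents. No member of 9 passed with limma against Col-0 (2.31% of all genes called), against Aa-0 (2.74%) or against the mid-parent (0.238%). At an unadjusted p below 0.05 the member counts were 2, 0 and 0, where 16.4%, 9.53% and 4.01% of all genes reached it. MYC2 at 15.8 and 42.6 FPKM was above both Aa-0 libraries, as was JAZ5 at 0.96 and 1.54, the members that had differed between those parents. Such separation above Aa-0 was found for 2 of 9 members and 19.9% of all genes. Without Col-0 replicate 4, JAZ5 passed as lower than in Col-0. JAZ1 was at 12.6 and 43.5 FPKM in this hybrid and 28.9 and 8.72 in Col-0×Per-1, JAZ6 at 51.0 and 71.3 against 81.9 and 53.1, and JAZ9 at 33.6 and 74.8 against 66.3 and 29.7. JAZ3 was at 14.3 and 18.6 FPKM against 14.3 and 11.1, JAZ5 in Col-0×Per-1 at 0.94 and 0.26, and JAZ7 at 0.22 and 1.84 against 2.48 and a listed 0. The hybrids overlapped for every one of these except JAZ5, which was higher in both Col-0×Aa-0 libraries, as were 41.4% of all genes.

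Directly compared, the hybrids differed in no member of 9 (limma, 2.04% of all genes called; 0 members and 17.6% of genes at an unadjusted p below 0.05), and their mid-parent deviations differed in none (0.233% called; 3 members and 9.34% of genes unadjusted). The deviations of the 9 members were all lower in Col-0×Per-1, with a median difference of -1.43 against -0.10 for all genes, of which 33.8% were higher. Both hybrids share Col-0 as a parent and thus the same 4 libraries.

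Other parts of the pathway were counted in the same fit. The shares of all tested genes that differed, given above for each comparison, hold here too. Of the other TIFY genes, the family that includes the JAZ genes, 6 of 7 were tested and none differed between any 2 parents. JAZ12 was at 57.9 ± 3.73 FPKM (SD, n = 4) in Col-0, 49.4 ± 2.91 in Aa-0 and 46.2 ± 3.95 in Per-1 (n = 2 each), and fell only in Col-0×Per-1 against Col-0 (-0.60 ± 0.11, adjusted p = 0.0082, limma). JAZ11 was at 11.4 ± 1.24 FPKM in Col-0 and 9.66 ± 1.56 in Per-1, and JAZ4 stayed at or below 0.32 FPKM in every library. AT3G22275, which is JAZ13 and also on that list, had 4.20 and 1.56 FPKM in Per-1 and 0.07 and 0.08 in Aa-0. In Col-0 it had 1.95, 2.61, 0.47 and 0.13 FPKM, which overlapped Per-1. Of 9 receptor and corepressor genes none differed between parents, with COI1, the receptor, at 17.2 ± 0.87 FPKM in Col-0, 14.5 ± 0.94 in Aa-0 and 13.9 ± 0.52 in Per-1. NINJA, which links JAZ proteins to TOPLESS, was at 22.0 ± 4.23, 23.8 ± 0.59 and 18.4 ± 0.34 FPKM in the same groups, and the deacetylase HDA19 was lower in Col-0×Per-1 than in Col-0 (-0.37 ± 0.11, adjusted p = 0.0461). In that comparison 17.3% of all tested genes were lower and 2.66% higher, at a median of -0.23. With median-ratio scaling the lower genes went from 2968 to 942 and the median to -0.01. The part of this shift in the HDA19 and JAZ12 differences was not tested.

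Among 6 other bHLH factors, MYC3, a partner of MYC2, was at 19.1 ± 1.52 FPKM in Col-0, 16.3 ± 1.62 in Aa-0 and 17.7 ± 0.31 in Per-1, passing in no comparison between parents. MYC4 and MYC5 were lower in Per-1 than in Col-0 (-1.05 ± 0.34, adjusted p = 0.0466, and -1.11 ± 0.35, adjusted p = 0.0429, limma), MYC4 being at 5.17 ± 2.21 FPKM in Col-0 and 1.88 ± 0.67 in Per-1. AIB, also called JAM1, a bHLH factor that competes with MYC2, was at 17.0 ± 4.42 FPKM in Col-0, 5.68 ± 1.53 in Aa-0 and 15.3 ± 3.70 in Per-1. It was lower in Aa-0 than in Col-0 (-1.41 ± 0.26, adjusted p = 0.00485) and lower in Col-0×Per-1 than the mid-parent (-1.16 ± 0.25, adjusted p = 0.0409). JAM1 was also higher in Per-1 than in Aa-0 (1.28 ± 0.30, adjusted p = 0.0226, limma).

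Of 13 genes of jasmonate synthesis, 1 was lower in Per-1 than in Col-0, ACX1, a peroxisomal acyl-CoA oxidase (-0.81 ± 0.16, adjusted p = 0.0066), and none higher (limma). The lipoxygenases LOX3 and LOX4, which start the pathway, were the 2 that fell in Aa-0 (-2.69 ± 0.43, adjusted p = 0.00238, and -3.23 ± 0.84, adjusted p = 0.0279). Between Per-1 and Aa-0, 3 were higher in Per-1 and none lower. These were LOX3 (2.51 ± 0.50, adjusted p = 0.011), OPCL1 (2.22 ± 0.45, adjusted p = 0.012) and AOC3 (2.085 ± 0.46, adjusted p = 0.0183, limma). In Col-0×Per-1 against Per-1, 3 fell, among them the reductase OPR3, at 12.1 ± 3.59 FPKM against 72.5 ± 46.1 (-2.36 ± 0.48, adjusted p = 0.0198), and OPR3 also lay below the mid-parent (-1.90 ± 0.42, adjusted p = 0.0473). Of 10 turnover genes 7 were tested, and in Per-1 against Col-0 they split into 2 higher and 2 lower. CYP94C1, an oxidase of jasmonoyl-isoleucine, was at 8.54 ± 4.86 FPKM in Per-1 and 1.95 ± 1.01 in Col-0 (1.66 ± 0.37, adjusted p = 0.0102), and ST2A, a sulfotransferase of hydroxyjasmonate, rose by 1.25 ± 0.26 (adjusted p = 0.00779). JRG21, a jasmonate hydroxylase, fell by 1.66 ± 0.34 (adjusted p = 0.00688), from 5.08 ± 1.63 to 0.90 ± 0.49 FPKM, and AT2G38240 by 0.88 ± 0.15 (adjusted p = 0.00255). In Aa-0 against Col-0, 1 was higher, ST2A (1.05 ± 0.26, adjusted p = 0.0232). There 2 were lower, IAR3 (-0.98 ± 0.25, adjusted p = 0.0251) and JRG21 (-1.15 ± 0.34, adjusted p = 0.0462, limma). ST2A and JRG21 thus moved the same way from Col-0 in Per-1 and in Aa-0. In Per-1 against Aa-0, 2 were higher, CYP94C1 (2.52 ± 0.43, adjusted p = 0.00446) and IAR3 (1.125 ± 0.29, adjusted p = 0.0357), and none lower.

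Of 12 output genes of the pathway 11 were tested. ORA59, an activator of defensin genes, was higher in Per-1 than in Col-0 (2.83 ± 0.52, adjusted p = 0.00399), and ANAC019, a NAC factor downstream of MYC2, was lower (-2.30 ± 0.46, adjusted p = 0.00629, limma). ANAC055, another NAC factor of the list, went the other way, at 38.9 and 20.8 FPKM in Per-1 and 2.54 to 15.2 in Col-0. It did not pass, and 7 of the 11 differences were above 0. In Aa-0 the 3 that passed were lower than in Col-0, namely VSP2, a vegetative storage protein induced through MYC2 (-2.44 ± 0.35, adjusted p = 0.00106), and the defensin genes PDF1.2 (-3.23 ± 0.70, adjusted p = 0.0122) and PDF1.3 (-2.29 ± 0.61, adjusted p = 0.0314). The defensin gene PDF1.2b went the other way, at 14.45 and 6.89 FPKM in Aa-0 and 1.21 to 6.81 in Col-0. It did not pass and was the only 1 of the 11 above 0. VSP2 in Per-1, at 11.6 and 4.75 FPKM, was also below every Col-0 library (12.5 to 25.7 FPKM), though that difference did not pass. In Per-1 against Aa-0, 4 of the 11 were higher and none lower. They were PDF1.2 (4.71 ± 0.81, adjusted p = 0.00482), ORA59 (2.98 ± 0.60, adjusted p = 0.012), ERF1 (1.22 ± 0.33, adjusted p = 0.0481) and VSP2 (1.46 ± 0.40, adjusted p = 0.0484, limma). None of the 11 differed from the mid-parent in either hybrid. No gene of a list of 9 clock genes passed in any of these comparisons. The Col-0 pairs stood far apart for LHY (50.6 and 51.5 against 1.57 and 1.85 FPKM), which widens the spread shared by all groups. Its standard error was 1.37 between Per-1 and Aa-0, so the lack of calls does not show that clock levels were alike.

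Across the 12 libraries the 9 tested members varied together. Pearson's r of log2(FPKM + 1) ranged from 0.52 (JAZ1 and JAZ6) to 0.97 (JAZ1 and MYC2) over 36 pairs, with a median of 0.84, and 31 of the pairs were above 0.7. The points are the same 12 libraries in 5 groups, so these values describe the data and carry no test. Among 11281 other genes averaging 5 FPKM or more, those closest to the mean profile of the members were PGIP2, an inhibitor of fungal polygalacturonases (r = 0.99), AT2G27310 (0.97) and AT5G13760 (0.97). Next came SOT16, a sulfotransferase of glucosinolate synthesis (0.96), NAC3, which is ANAC055 of the output list (0.96), and OPCL1, a ligase of jasmonate synthesis (0.95). PGIP2 ranged from 34.2 to 219 FPKM. JAZ10 alone was nearest to PGIP2 (0.97), AT2G27310 (0.96) and APS3 (0.95), and MYC2 alone to SOT16 (0.97), PUB23 (0.97) and AT1G55450 (0.96).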

How the data were processed

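Libraries were made from total leaf RNA with a TruSeq kit (v2), per the labels' protocols, which is not strand-specific. The submitters' processing notes name TopHat2 2.0.8b, Cufflinks 2.0.2, edgeR 3.12.0 and the build TAIR10, without roles. The authors deposited FPKM values per library; raw counts were not used here.

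The members, gene lists and tests were chosen with earlier results of these data known. FPKM values were taken as log2(FPKM + 1), and genes with at least 1 FPKM in 2 libraries were kept (17203 of 34133 identifiers, 8532 of them 0 throughout). A 5-group model was fitted with limma 3.58.1 in R 4.3.3 (empirical Bayes with trend, 7 residual degrees of freedom), tested on simulated data first. Mid-parents are the log2 of the mean fitted level, with delta-method errors. Tables were handled in Python 3.11.15 with pandas 2.3.3 and drawn with matplotlib 3.10.9. RefSeq names matched 31416 identifiers and all 116 list genes.

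The text names every member, at most 3 called genes per list and comparison by adjusted p, 8 fixed genes, and the genes most like the members. CYP94C1, AT3G22275, RBCS1A, PDF1.2b and, among the outputs, ANAC055 and the Per-1 values of VSP2 fall outside that rule and were named after their values were seen. Other pseudocounts, filters, scalings, variance priors, Col-0 subsets, a replicate block and omission of each library were tried, and the 2 contrasts of each hybrid with the parent it lacks were added after the data were seen.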

Additional observations from a re-analysis of the deposited data

Results flagged for a closer look

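AT2G38240, listed among the jasmonate turnover genes, was the only list gene whose mid-parent deviation differed between the hybrids in the fit as reported (-1.46 ± 0.19 on the log2 scale, adjusted p = 0.014, limma). It was at 2.37 and 2.86 FPKM in Col-0×Aa-0 and at 0.29 and a listed 0 in Col-0×Per-1, against 0.23 and 0.03 in Per-1, 0.78 to 1.3 in Col-0, and 0.54 and 0.69 for Aa-0.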

How the results depend on the processing

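No member difference changed its direction among those that passed. The share of all tested genes called moved as well and is given in parentheses for the same setting. In Aa-0 against Col-0 the count of 2 members became 1 with no filter (12.3%), with a minimum of 5 FPKM (14.7%), with median-ratio scaling (14.8%) and with quantile normalization (14.3%). It became 4 when Col-0 replicates 1 and 2 alone were used (24.2%) and 0 when replicates 3 and 4 were (20.6%). In Per-1 against Col-0 the 2 became 1 with no filter (19.0%) or Col-0 replicates 1 and 2 alone (29.0%), and 5 with replicates 3 and 4 alone (31.9%). In Per-1 against Aa-0 the 4 became 8 and 7 with those subsets, while the share of all genes went from 9.96% to 15.3% and 14.1%. With Col-0 replicates 1 and 2 alone the 0 of Col-0×Aa-0 against Col-0 became 1 (13.8%). The 0 of Col-0×Per-1 against Col-0 became 3 (18.5%), or 1 with log2(FPKM + 0.1) (20.1%). With that same subset the 3 of Col-0×Per-1 against Per-1 became 5 (6.97%). Lower in Col-0×Per-1 than its mid-parent, the 2 became 0 with no filter (1.87%), median-ratio scaling (1.57%) or quantile normalization (1.48%), and 1 with a minimum of 5 FPKM (2.1%). They became 5 and 4 with the Col-0 subsets, while the share of all genes went from 2.57% to 3.48% and 15.1%. The cause was not tested.

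Leaving out 1 library in turn gave 0 to 4 members in Aa-0 against Col-0, 0 to 3 in Per-1 against Col-0, 0 to 7 in Per-1 against Aa-0, 0 to 1 for the Aa-0 hybrid and 0 to 2 for the Per-1 hybrid against Col-0, 0 to 5 in Col-0×Per-1 against Per-1 and 0 to 4 below its mid-parent, and 0 in the other 4 planned comparisons. The added comparison of Col-0×Aa-0 with Per-1 is not in this tally. The share of all tested genes called in each omission is not given here or with the comparisons above. Member counts under omissions thus cannot be set against it.

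The labels name no batch. Of 10 correlations of same-numbered libraries (-0.585 to 0.369) 3 were above 0.1, those among Col-0, Per-1 and Col-0×Per-1 (0.292 to 0.369). Col-0×Aa-0 was negative with each of these groups (-0.585 to -0.367). Whether same-numbered libraries of those groups shared a batch or were paired was not tested. The replicate block gave Col-0 replicates 3 and 4 a term each, so its Col-0 level rested on replicates 1 and 2 alone, as in that subset. With it 4, 1 and 7 members passed in the 3 parental comparisons in the order above (21.0%, 25.0% and 12.3% of all genes). In the hybrids against Col-0 it gave 1 and 2 (11.0% and 13.2%). For Col-0×Per-1 it gave 5 against Per-1 (5.84%) and 3 below its mid-parent (1.59% of all genes called). Of the member values under all alternatives, 2314 kept their side of the threshold, 93 fell short of it and 77 newly passed. Most of these values belong to differences that had not passed, and only those that had passed could fall short. The tally is thus no measure of how stable the calls were. Calls lost when a library was omitted are given with each comparison above. Of calls lost under other settings, the following are added here. MYC2 in Col-0×Per-1 against Per-1 failed with no filter, a minimum of 5 FPKM, or Col-0 replicates 3 and 4 alone. With that subset JAZ7 passed instead. JAZ7 in Col-0×Aa-0 against Per-1 failed with log2(FPKM + 0.1) and with no filter. JAZ2 in Per-1 against Aa-0 failed with no filter. JAZ8 and JAZ4 were below 1 FPKM in every library and were not tested; the part of depth in their levels was not tested.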
